A study of Mus musculus with 6 samples.

Results

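The genes for laminin chains, nidogens and perlecan were compared between cultured lymphatic endothelial cells (LEC) of a mouse tumour and of normal skin. The members were taken by gene symbol: Lama2, Lama3, Lama4 and Lama5 for laminin alpha chains, Lamb1 and Lamb2 for beta chains, Lamc1 for a gamma chain, Nid1 and Nid2 for nidogens, and Hspg2 for perlecan. All 10 were among the 12954 genes tested. Tumour LEC were isolated from fibrosarcomas of T241 cells carrying VEGF-C and GFP that had been injected into C57BL/6 mice, and normal dermal LEC from tail skin of C57BL/6 mice, given as female and 8 weeks old. Both were cultured on gelatin in EGM-2 medium and selected with antibodies to LYVE-1 on magnetic beads, and each group had 3 Affymetrix arrays. The titles of the tumour arrays say tumour cells, and their source descriptions say LEC from the tumours. Per the labels, the larger part of the contaminating tumour cells was lifted off before the LEC were detached. The fibrosarcoma line is a single grafted line, and no age or sex is given for the animals that carried it. Nothing in the labels says whether replicates were separate animals or cultures, so the p-values reflect no more than the spread among arrays, which may be technical.

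Basement membranes are thin sheets of matrix under endothelium and epithelium and around muscle, nerve and fat cells. Laminins form their cell-facing layer: each is a cross-shaped trimer of an alpha, a beta and a gamma chain that polymerises on the cell surface and is bound there by integrins and dystroglycan. Nidogens bridge laminin to the type IV collagen network, and perlecan is a large proteoglycan whose heparan sulphate chains hold growth factors. Blood vessels have a continuous basement membrane in which the chains of Lama4 and Lama5 are the usual alpha chains, whereas initial lymphatic vessels in skin have a thin and discontinuous one. The chain of Lama2 is known from muscle, peripheral nerve and mesenchymal cells, and that of Lama3 from epithelium.

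Array medians lay between 2.99 and 3.15 on the log2 scale, with the highest in tumour replicate 3. A value at or below the highest of 27 bacterial control probe sets on its array (3.40 to 3.71) is called at background here. The LEC labels were checked against 8 measured lymphatic markers. Lyve1, a hyaluronan receptor and the antigen the cells were selected on, read 13.65 to 14.91 on the 6 arrays, and Prox1, the transcription factor of lymphatic fate, 7.73 to 8.92. Pdpn, Flt4 and Reln read 10.88 to 12.80. Itga9 was low (4.22 to 4.61), Mmrn1 was at background on all 6 arrays, and Nr2f2 read 9.34 to 9.80 in normal and 7.92 to 9.22 in tumour LEC, a difference of -0.98 that did not pass (limma adjusted p = 0.288). Normal replicate 1 stood apart. The mean of 12 fibroblast markers, such as Pdgfra and Col1a2, was 10.60 there. The remaining normal arrays had 7.50 and 7.42, and tumour LEC 3.40 to 4.02. The mean of 9 endothelial markers, such as Pecam1 and Cdh5, was 7.93 there, the lowest of the 6 arrays. The remaining normal arrays had 8.87 and 9.40, and tumour LEC 9.53 to 10.17. Tumour replicate 1 had the highest mean of 8 leukocyte markers, 8.71 against 5.40 to 7.30 elsewhere.

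Upstream sequences from RefSeq (build GRCm38.p6) were used for 6 of the 10 genes, from a selection that left out 1 chromosome. Those of Lama2, which had the widest difference between the groups, and of Nid1, whose group means differed by 0.22 log2 units, are shown so that their composition can be compared. Each run is the 250 bases before the annotated start, 5′ to 3′ on the gene's strand, with the GC box GGGCGG, searched on both strands, in capitals. The Nid1 run holds 1 such match and the Lama2 run 0, since its match lies wholly or partly after the start. The Lama2 run lies at chr10:27616943-27617192 on the minus strand and the Nid1 run at chr13:13437352-13437601 on the plus strand.
Lama2: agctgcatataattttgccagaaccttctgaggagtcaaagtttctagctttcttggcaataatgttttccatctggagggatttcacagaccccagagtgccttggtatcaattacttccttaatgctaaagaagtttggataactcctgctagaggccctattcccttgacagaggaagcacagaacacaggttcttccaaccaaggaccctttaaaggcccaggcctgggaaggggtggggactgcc
Nid1: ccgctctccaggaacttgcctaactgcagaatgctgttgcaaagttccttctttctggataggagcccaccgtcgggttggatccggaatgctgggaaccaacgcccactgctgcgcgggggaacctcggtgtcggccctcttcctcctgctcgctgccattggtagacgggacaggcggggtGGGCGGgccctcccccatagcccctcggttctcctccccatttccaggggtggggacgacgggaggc
In windows of 300 bases that also hold the first 50 bases of the transcript, Lama2 had 50.3% G and C and 1 CpG, and Nid1 had 64.7% and 20 CpG. The median of all 32851 such windows in the table was 52.7% with 7 CpG. GGGCGG was present in 5 of the 6 windows, in all but Lamb2, and in 35.7% of all windows. TATAAA on either strand was in none of the 6 and in 13.6% of all windows, and AGGAAG on either strand was in 3, those of Lama2, Lamb2 and Nid1, and in 35.4% of all. These matches describe letters and were not set against the expression values.

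None of the 10 genes passed when tumour LEC were tested against normal LEC (limma, Benjamini-Hochberg adjusted p under 0.05), where 28 of 12954 genes, 0.216%, passed. With no adjustment 3 members, Lama2, Lama4 and Lamc1, had a p under 0.05, as did 15.5% of all genes tested. The means of 8 members were higher in tumour LEC and those of 2 lower, and their median difference was 0.18 log2 units, against 0.03 over all genes tested. The groups did not overlap for 3 higher members, Lama3, Lama4 and Lamc1 (20.9% of all genes did so), and for 1 lower member, Lama2 (11.6% of all genes). Lama3 is counted there although it was at background on all 6 arrays. Of the 7 members above background on all arrays, 4 had a 95% interval of the difference within 1 log2 unit, or 2-fold, on both sides of 0: Lamb1, Lamc1, Nid1 and Hspg2. That count rests on the brightest probe set of each gene, and the share over all genes was not computed.

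**Figure D1:**
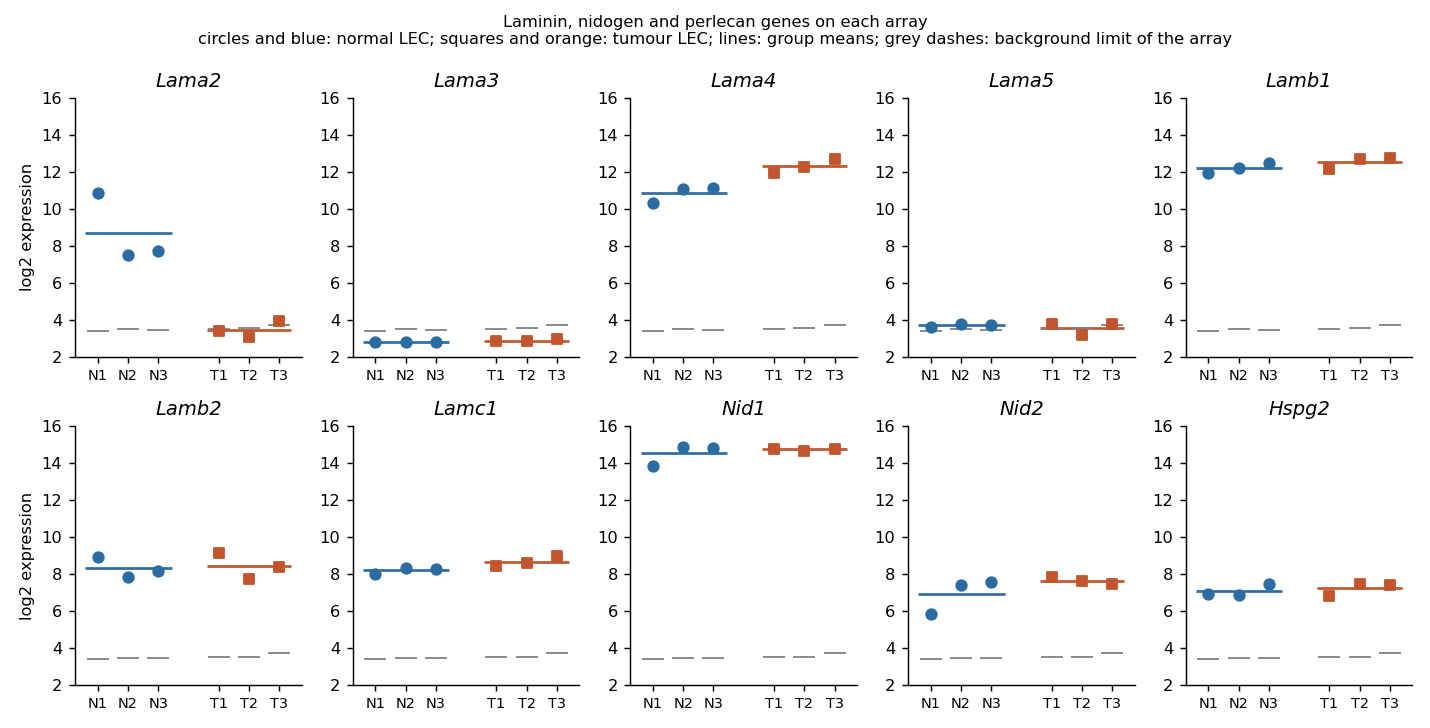
Log2 expression (vertical axis, the same in every panel) of the 10 genes on each normal (N) and tumour (T) array, with group means as lines and the background limit of each array as a grey dash. Lama2 lies at or near the limit on the tumour arrays only, Lama4 is higher on all 3 tumour arrays than on any normal array, and Lama3 lies under the limit on every array.

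Among the alpha chains, Lama2 and Lama4 differed in opposite directions. Lama2 read 10.84, 7.51 and 7.69 in normal replicates 1 to 3 and 3.40, 3.06 and 3.92 in tumour replicates 1 to 3. All normal arrays were far above the tumour arrays, and tumour replicates 1 and 2 were at background. The difference was -5.22 (SE 0.94, 95% interval -7.56 to -2.88, limma adjusted p = 0.102). With values at background raised to the limit of their array, the tumour mean of Lama2 was 32.9-fold lower. That fold allows for the background limit only, not for the spread among arrays. Without normal replicate 1, the highest array for Lama2, the difference was -4.14 with an adjusted p = 0.0172. With array weights the adjusted p was 0.0433, and over all 15 alternative settings it ranged from 0.0172 to 0.274. The array weights were 3.72 for tumour replicate 2 and 0.45 and 0.31 for tumour replicates 1 and 3, so that fit rests mainly on 1 tumour array. One probe set measures Lama2 on this array.

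Fibroblast markers were also lower in tumour LEC. All 12 had lower means in tumour LEC, for all 12 normal replicate 1 held the top normal value, the groups did not overlap for 11 (all but Lum), and 1, Col1a2, passed the test. Lum, Dpt and Mfap5 were at background on all 3 tumour arrays, and Pdgfrb, Col1a2 and Col3a1 on 2 of them. Markers of smooth muscle and pericytes, 7 measured, had means of 5.43 to 6.85 in normal LEC and 5.02 to 5.82 in tumour LEC. Of these, 4 had a lower and 3 a higher mean in tumour LEC, and none passed. Cspg4 read 8.11, 5.38 and 6.66 in normal LEC and was at background on all 3 tumour arrays. Tagln was higher in tumour LEC by 1.31 (SE 0.89). For 6 of the 7, normal replicate 1 held the top normal value. Of 2 measured Schwann cell genes, Sox10 was at background on every array. The other, the myelin gene Mbp, read 4.36, 3.26 and 3.65 in normal LEC, with the second of these at background, and was at background on all 3 tumour arrays. With the mean of the 12 fibroblast markers subtracted on each array, a scale chosen after the data were seen, the difference in Lama2 was -0.48. The groups overlapped on that scale, with 0.01 to 0.27 in normal and -0.61 to 0.04 in tumour LEC. Its tumour values are partly set by the floor. Lama2 was at background in tumour replicates 1 and 2, and the marker mean of tumour replicate 2, 3.40, was under the limit of 3.53. The small difference therefore does not measure how closely Lama2 follows the markers. The part of these cell types in the Lama2 result was not tested. In bulk RNA, fewer cells of a type and less RNA per cell cannot be told apart.

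Lama4 went the other way. It read 10.34, 11.09 and 11.11 in normal replicates 1 to 3 and 11.92, 12.24 and 12.72 in tumour replicates 1 to 3. Every tumour array was above every normal array. The mean difference was 1.45 (SE 0.30, 95% interval 0.69 to 2.20), or 2.73-fold, and did not pass the test (limma adjusted p = 0.133, and 0.0503 to 0.298 in the 15 alternative settings). Its second, dimmer probe set read 4.42 to 5.41 in normal LEC and 5.59 to 5.88 in tumour LEC, again without overlap, a difference of 0.70 (SE 0.29). The mean of the 9 endothelial markers, 8 of which had higher means in tumour LEC, was higher in tumour LEC without overlap. With that mean subtracted on each array, a scale chosen after the data were seen, the difference in Lama4 was 0.41. The groups overlapped on that scale, with 1.71 to 2.41 in normal and 1.75 to 3.10 in tumour LEC. All other members had negative differences on it, such as -0.69 for Lamb1 and -0.57 for Lamc1. The subtracted mean was itself higher in tumour LEC, so any gene whose own difference was smaller turns negative there. These signs follow from the subtraction and do not set Lama4 apart. Lama3 and Lama5, at or near background, are among these members. The part of endothelial RNA in the Lama4 result was not tested.

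**Figure D2:**
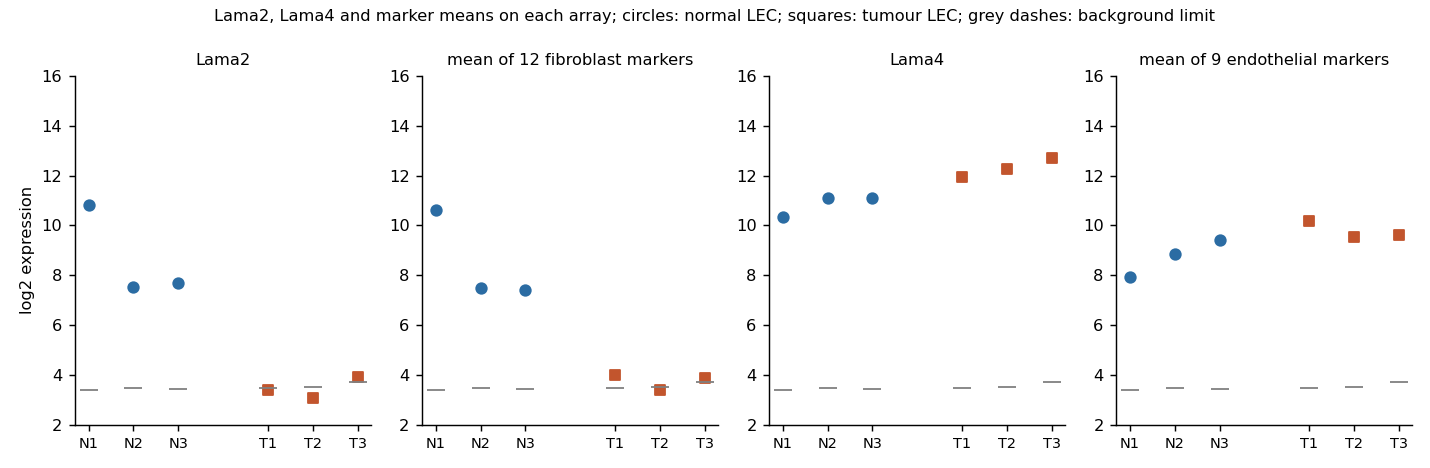
Log2 expression (vertical axis) on each normal (N) and tumour (T) array of Lama2, the mean of 12 fibroblast markers, Lama4 and the mean of 9 endothelial markers, each in its own panel with the background limits as grey dashes. Lama2 and the fibroblast mean are highest in normal replicate 1 and near the limit in tumour LEC, where Lama2 and several markers are at background. Lama4 and the endothelial mean are lowest in normal replicate 1. Levels of different probe sets cannot be compared between panels.

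The other alpha chains gave little signal. Lama5 read 3.57 to 3.78 in normal LEC and 3.74, 3.15 and 3.78 in tumour replicates 1 to 3, so it was barely above background on 5 arrays and at background in tumour replicate 2. Its other probe sets were at background on all 6 arrays. The values of Lama3 were 2.79 to 2.80 in normal and 2.82 to 2.95 in tumour LEC, all at background. Its sign turned under quantile normalization. No fold is given for either gene. A within-array comparison of Lama4 with Lama5 was planned, and its value is not given because Lama5 was at or near background.

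The beta and gamma chains that join Lama4 in the vascular trimer differed less than it did. Lamb1 read 11.92, 12.20 and 12.47 in normal and 12.17, 12.70 and 12.75 in tumour LEC. The groups overlapped, with tumour replicate 1 below both normal replicates 2 and 3. The difference was 0.35 (95% interval -0.22 to 0.91, limma adjusted p = 0.493), and the other probe sets above background gave 0.36 and -0.02. Lamc1 read 8.00, 8.32 and 8.29 in normal and 8.45, 8.59 and 8.98 in tumour LEC. No tumour array was under a normal array, and the difference was 0.47 (SE 0.18, 95% interval 0.01 to 0.92, limma adjusted p = 0.312). Its second probe set, which read 5.02 to 5.61, overlapped and differed by -0.09.

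Lamb2, the beta chain of mature vessel walls and of the neuromuscular junction, varied within both groups. It read 8.91, 7.83 and 8.16 in normal and 9.13, 7.72 and 8.39 in tumour LEC. The SD was 0.55 in normal and 0.70 in tumour LEC, wider than the difference of 0.11 (95% interval -0.99 to 1.22), and the sign changed in 3 of 15 alternative settings. In both groups replicate 1 was highest and replicate 2 lowest. With the replicate block the SE of the difference was 0.14, against 0.45 without it, and Lamb2 did not pass (limma adjusted p = 0.680). Lamb1 minus Lamb2 shifted by 0.23 between the groups (exact permutation test, two-sided p = 0.6, where 3 against 3 arrays can give no less than 0.1).

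The nidogens were measured well above background on their brightest probe sets. Nid1 read 13.87, 14.88 and 14.82 in normal and 14.78, 14.68 and 14.77 in tumour LEC. Normal replicate 1 was the low array, and the other 5 lay between 14.68 and 14.88. The difference was 0.22 (95% interval -0.51 to 0.95), and without normal replicate 1 it was -0.11. The other Nid1 probe sets gave -0.41 (SE 0.60) and 0.50 (SE 0.61), with wider spread than the brightest. The 3 did not share a sign, and none had a p under 0.05. The probe set with 0.50, the dimmest, was at background in normal replicate 1 (3.24). Nid2 showed the same low array, with 5.82, 7.41 and 7.54 in normal and 7.82, 7.65 and 7.46 in tumour LEC. Its difference of 0.72 (95% interval -0.49 to 1.92, limma adjusted p = 0.502) was 0.16 without normal replicate 1. Nid1 minus Nid2 shifted by -0.49 (exact permutation test, two-sided p = 0.2, or 0.3 adjusted over the 3 planned pairs). In normal replicate 1, 7 of the 10 members were at their lowest among the normal arrays, as were 4232 of all 12954 genes tested. These 7 include Lama3, at background on all arrays, and Lama5, barely above it there. The exceptions were Lama2 and Lamb2, which were highest there, and Hspg2.

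Hspg2, the perlecan core protein, did not separate the groups. It read 6.90, 6.84 and 7.48 in normal and 6.81, 7.43 and 7.42 in tumour LEC, where the lowest array of all was a tumour array and the highest a normal one. The difference was 0.14 (95% interval -0.51 to 0.79, limma adjusted p = 0.775), and the second probe set gave 0.13.

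**Figure D3:**
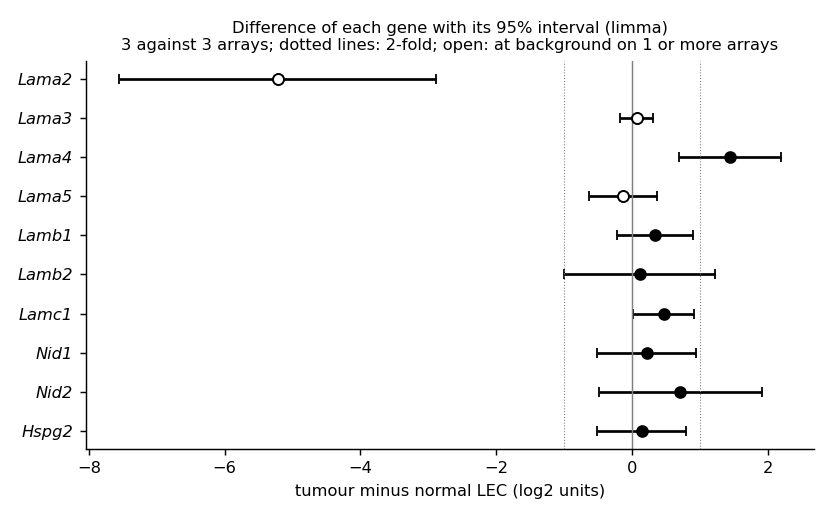
Tumour minus normal LEC in log2 units (horizontal axis) for each gene, with the 95% interval of the limma fit on 3 against 3 arrays and dotted lines at 2-fold. Open circles are the genes at background on 1 or more arrays, Lama2, Lama3 and Lama5, whose intervals are partly set by that floor. The intervals of Lama2, Lama4 and Lamc1 do not include 0, and no gene passed after adjustment over all genes.

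**Figure D4:**
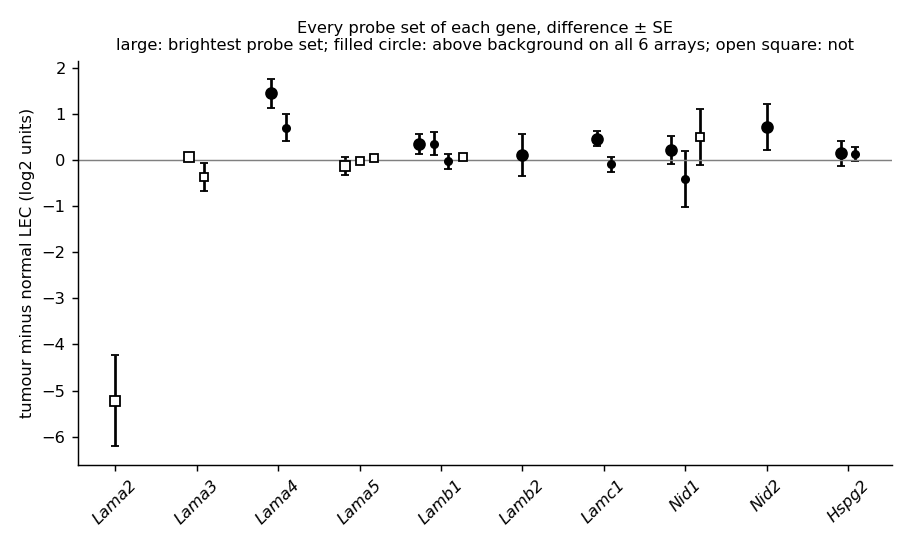
Tumour minus normal LEC in log2 units (vertical axis) for all 21 probe sets of the 10 genes, with the SE of a limma fit without a filter on low values. Filled circles mark the 13 probe sets above background on all 6 arrays; both Lama4 probe sets lie above 0, and those of Lamb1, Lamc1 and Nid1 lie on both sides of it.

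Some further laminin chains were not tested. Lama1, Lamb3 and Lamc3, of embryonic, epithelial and other basement membranes, were under the filter on low values. Of the laminin-related netrins, Ntn4, which binds the laminin gamma chain and can disturb laminin networks, read 10.06, 10.85 and 11.62 in normal and 11.58, 12.67 and 12.79 in tumour LEC. The groups overlapped by the narrow margin of tumour replicate 1, and the difference of 1.50 (SE 0.51) did not pass (limma adjusted p = 0.267). Ntn1, an axon guidance netrin, read 4.69 to 5.51 in normal LEC and 3.09, 3.09 and 3.94 in tumour LEC, where 2 values were at background. Its difference did not pass (limma adjusted p = 0.107). With those 2 values raised to the limit of their array, its tumour mean was 2.80-fold lower, with no allowance for the spread among arrays. With array weights Ntn1 passed (adjusted p = 0.0327). None of the 3 tested genes of this list passed otherwise.

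Among 16 tested genes for other basement membrane components 1 passed, and it was lower. Npnt, or nephronectin, a ligand of integrins in epithelial basement membranes, read 8.76, 8.07 and 8.85 in normal and 4.86, 4.59 and 4.48 in tumour LEC. The groups were far apart with little spread, and Npnt fell by 3.92 on the log2 scale, or 15.1-fold (SE 0.25, limma adjusted p = 0.0151). The call was lost without normal replicate 3 (adjusted p = 0.0712) and without tumour replicate 1 (0.0524), 2 (0.0851) or 3 (0.155). It was kept in 11 of 15 alternative settings. With the mean of its probe sets the difference was smaller, -2.61, and still passed (limma adjusted p = 0.0206). Col4a1 and Col4a2, the chains of the common type IV collagen, differed by 0.39 (SE 0.12) and 0.57 (SE 0.15), without overlap between the groups, and neither passed. Agrn, a heparan sulphate proteoglycan, differed by 0.76 (SE 0.56). The list's median was 0.09. Of its members 4 were at background on all arrays.

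None of 16 tested laminin receptors and partners passed, 8 with a higher and 8 with a lower mean, and their median difference was -0.07. Itgb1, the beta subunit shared by most laminin-binding integrins, read 11.37 to 11.53 in normal and 11.73 to 12.26 in tumour LEC, a difference of 0.57 (SE 0.17, limma adjusted p = 0.224). Its partners Itga6 and Itga3 differed by 0.25 (SE 0.50) and 0.63 (SE 0.40), and Itga6 by -0.31 without normal replicate 1. Dag1, or dystroglycan, differed by -0.19 (SE 0.30). Sdc1 and Sdc2, cell-surface heparan sulphate proteoglycans, had the smallest p-values, with differences of -2.38 (SE 0.28, adjusted p = 0.0577) and -1.64 (SE 0.36, adjusted p = 0.144). Sdc1 read 10.26 to 10.81 in normal and 7.80 to 8.71 in tumour LEC, without overlap. It passed with the 60th percentile filter (adjusted p = 0.0305) and with array weights (0.0264).

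Epithelial markers went both ways, although their mean was lower in tumour LEC, as Npnt and Sdc1 were. The mean of 9 measured markers was 5.36 to 6.02 in normal and 4.50 to 4.94 in tumour LEC, without overlap. Of the 9, 5 had a lower mean in tumour LEC, and the median difference was -0.08. The groups did not overlap for 3 higher markers, Krt5, Cdh1 and Trp63 (20.9% of all genes). They did not overlap for 2 lower ones, Krt10 and Perp (11.6% of all genes). Perp, a membrane protein of desmosomes and a target of p53, read 10.95, 9.07 and 10.14 in normal and 5.06, 4.99 and 4.21 in tumour LEC. It was the 1 epithelial marker that passed, and it fell by 5.30 on the log2 scale (SE 0.52, limma adjusted p = 0.0415). Its difference was the widest of the 9, against -2.56 for Krt18 and -1.54 for Krt8. The keratins Krt8 and Krt18 read 6.01 to 11.48 in normal and 4.54 to 8.83 in tumour LEC, with overlap. Krt5, of basal keratinocytes, read 3.73 to 3.81 in normal and 3.82 to 4.46 in tumour LEC. Cdh1, Trp63 and Dsp were at background on all 6 arrays. The part of epithelial or fibroblast RNA in the Npnt and Sdc1 values was not tested.

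No gene passed among 14 that build or remodel heparan sulphate, the chain type that perlecan carries (median -0.05), or among 3 that glycosylate dystroglycan for laminin binding (median -0.10). Extl3, a glycosyltransferase of chain initiation, differed by 0.51 (SE 0.14), and Hs2st1, a sulphotransferase, by -0.55 (SE 0.17). Pomt1, an O-mannosyltransferase, differed by -0.82 (SE 0.17, limma adjusted p = 0.137, and 0.0414 with array weights), and Pomgnt1, which extends that glycan, by -0.10 (SE 0.20).

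**Figure D5:**
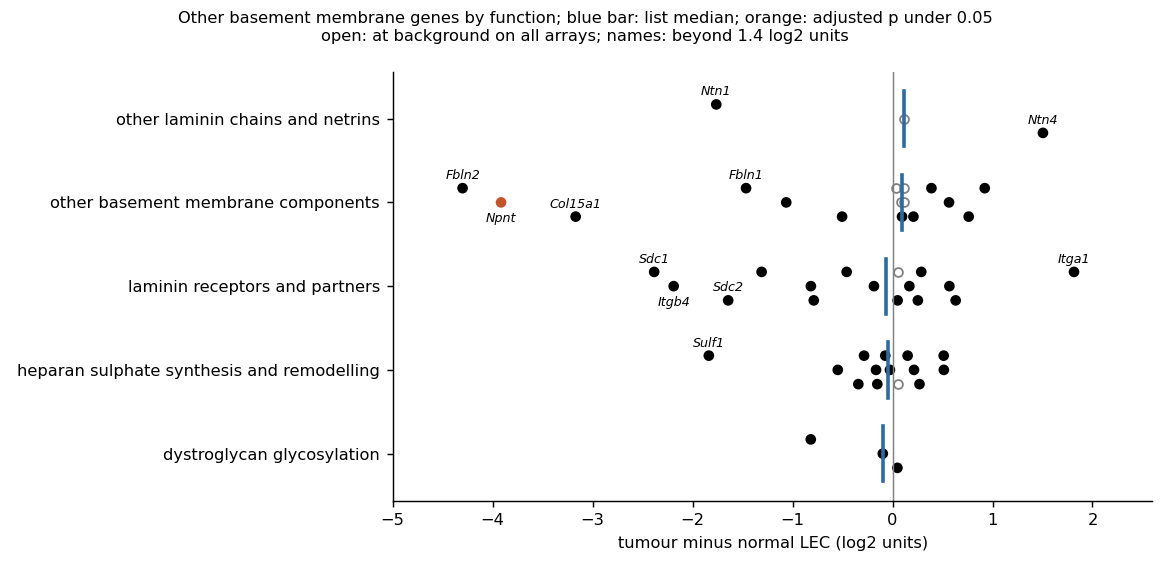
Tumour minus normal LEC in log2 units (horizontal axis) for the tested genes of 5 lists of basement membrane function, with list medians as blue bars. Npnt, in orange, is the gene past the adjusted threshold, and open circles are genes at background on all arrays. Names were given by the size of the difference, after the values were seen.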

How the data were processed

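The authors deposited log2 expression values for each probe set of 6 arrays (45101 probe sets); RMA and GCRMA are named per the submitters' processing notes, with no role or version, and which made the values is not stated. GCRMA draws dim signals to a floor, so folds against it depend on the method. Per the labels' protocols 50 ng of RNA was amplified in a kit of 2 cycles.

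Probe sets were named from GEO's platform annotation: 34945 had 1 gene, 932 several and 9160 none. Those of 1 gene with a mean above the 40th percentile (2.71) were kept, the brightest by mean over the 6 arrays stood for its gene, and 3 tumour were compared with 3 normal arrays in limma 3.58.1 (R 4.3.3; lmFit, eBayes, two-sided, Benjamini-Hochberg over 12954 genes, 28 past 0.05). Of 21 probe sets of the members 18 passed the filter. Scan dates and batches are not given in the sources used here. Intervals are unadjusted. The steps were tested on simulated data.

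Members and lists were chosen with earlier results of these data known. Named were all members; in each list those that passed, and where none did the 2 genes of smallest p; Col4a1, Col4a2, Itga6, Itgb1, Itga3, Dag1, Agrn and Lamb3; and Lyve1, Prox1, Pecam1, Cdh5, Pdgfra, Col1a2, Ptprc and Krt5 among markers. Further markers, Lama1, Lamc3 and the genes of the closing section were added after their values were seen. An item the rule also names is not reported here. Ptprc, of leukocytes, read 2.96 to 5.92. Alternatives were other filters, quantile normalization, median centring, a variance trend, array weights, other probe set rules, a replicate block and leaving out each array.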

Additional observations from a re-analysis of the deposited data

How the results depend on the processing

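The number of genes past the threshold, 28, was 10 with no filter on low values, 97 with a 60th percentile filter, 385 with array weights, 46 with the replicate block and 4 to 82 with single arrays left out. Calls with array weights rest mainly on tumour replicate 2 within its group (weight 3.72, against 0.45 and 0.31 for tumour replicates 1 and 3). The count of members, 0, became 1 with array weights and ranged from 0 to 1 with single arrays left out, Lama2 in each case. The median difference of the members ranged from 0.115 to 0.357 with single arrays left out, and without normal replicate 3 it was 0.357. Of 148 refits of single members, 140 kept their sign and side of the threshold, 2 crossed it (Lama2) and 6 changed sign, none of them past it. Refits with other filters, a variance trend or the replicate block leave the difference itself unchanged. No sign could change in those refits, so the count overstates how many could have differed. Lama3 was -0.0012 with quantile normalization and Lamb2 -0.36 with array weights. With single arrays left out, Lamb2 ranged from -0.245 to 0.458 (below 0 without normal replicate 2 or tumour replicate 1), Nid1 from -0.107 to 0.401 (below 0 without normal replicate 1) and Lama5 from -0.247 to 0.0685 (above 0 without tumour replicate 2). Among related genes, calls were gained by Sdc1 with the 60th percentile filter (adjusted p = 0.0305) and, with array weights, by Sdc1 (0.0264), Ntn1 (0.0327) and Pomt1 (0.0414). The list of other basement membrane components then held 2 calls in place of 1. Sign changes, none past the threshold, were as follows. Pomgnt1 was 0.00095 with quantile normalization and 0.0684 with array weights. With single arrays left out it ranged from -0.216 to 0.109, Itga6 from -0.309 to 0.536 and Dag1 from -0.468 to 0.0245. The causes were not tested. Lama3 and Lama5 fell under the 60th percentile filter and gave no value there.

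Arrays with the same replicate number correlated at 0.19, 0.33 and -0.004 in their deviations from the group means, and 4 of 6 arrays correlated best with their own number. The numbers were not taken as pairs in the main test because the labels name no pairing. Whether they are pairs is not settled by these values. With the replicate block no member passed, and Lama2 had an adjusted p of 0.114 and Lama4 of 0.0831. Signal over background limits Lama3, Lama5 and Lama2 in tumour LEC, and 3 arrays a group limit the rest.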

Other observations

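Other basement membrane genes, picked after their values were seen, differed widely without passing the test. Fbln2, or fibulin 2, a matrix protein that binds laminins and nidogen, read 11.87, 11.01 and 11.15 in normal and 9.05, 6.99 and 5.09 in tumour LEC, a difference of -4.30 (SE 0.99, limma adjusted p = 0.156). Col15a1, a collagen that links basement membranes to the tissue beneath, read 7.45, 4.54 and 4.86 in normal LEC. It was at background on all 3 tumour arrays (limma adjusted p = 0.194). With those values raised to the limit of their array, its tumour mean was 4.12-fold lower, with no allowance for the spread among arrays. Like the fibroblast markers, Col15a1 was highest in normal replicate 1. Itga1, a receptor subunit for collagens and laminins, read 5.18 to 5.84 in normal and 6.54 to 8.13 in tumour LEC, a difference of 1.82 (SE 0.43, adjusted p = 0.164).

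Col4a5, another type IV collagen chain, read 9.84 and 8.21 in tumour replicates 1 and 2 and was at background, at 3.23, in tumour replicate 3, whereas the normal arrays read 7.67 to 8.41.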
